A study of Mus musculus with 20 samples.

Results

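A set of 7 genes that sense or turn over extracellular ATP and adenosine were followed across sorted mouse CD4 T cells: the ATP-gated channels P2rx7 and P2rx4, the ectoenzymes Entpd1 (CD39) and Nt5e (CD73), the adenosine deaminase Ada and the adenosine receptors Adora2a and Adora2b. Their probes were found by gene name in the array annotation, which gave 11 of the 39429 probes on the array for these 7 of 30199 gene names. Of the 11 probes, 10 were tested because they were above background on both arrays of at least 1 group with 2 arrays. The remaining probe, a second Adora2b probe, was at the floor of 20 on all 20 arrays. Each gene is given by its probe with the highest mean over the arrays, and the other tested probes of P2rx7 and P2rx4 are given beside it.

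ATP that leaves activated or damaged cells opens P2X channels. Among these, the P2rx7 product needs much ATP and can drive shedding of surface proteins and cell death, and in mouse T cells it can also be opened by ADP-ribosylation after release of NAD. Entpd1 takes ATP and ADP down to AMP, Nt5e takes AMP to adenosine, Ada takes adenosine to inosine, and Adora2a and Adora2b, both coupled to cyclic AMP, sense adenosine. Regulatory T cells of mice are known for carrying both Entpd1 and Nt5e at their surface.

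In bulk samples such as these, fewer cells of a type and less RNA per cell cannot be told apart.

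All cells came from the reporter strain B6.Cg-Foxp3<tm1Mal>, in which cells that express Foxp3 carry GFP, and each sample pooled 8 to 15 mice of both sexes, 8 to 14 weeks old. Peripheral lymph nodes (pLN) were taken on day 12 (d12) or day 25 (d25) after subcutaneous immunisation with keyhole limpet hemocyanin in Alum, and the other cells from Peyer's patches (PP) of the gut. The labels give no immunisation for PP, while the methods name immunisation for PP and pLN together, so whether PP donors were immunised is not settled here. The gates were GFP- PD1- GL7- for naive T cells, GFP- PD1hi for T follicular helper (TFH) cells, GFP+ PD1- GL7- for regulatory T (Treg) cells and GFP+ PD1hi irrespective of GL7 for T follicular regulatory (TFR) cells. TFH cells were GL7+ in pLN and were sorted as GL7+ and GL7- fractions in PP, where naive T cells were not part of the series. The 12 groups held 2 arrays each in pLN d12 and PP and 1 array each in pLN d25, 1 array per sorted pool, so the p-values measure the spread between pools. The 2 arrays of a group also differed in slide, scan day and RNA input, which this spread includes. Values are normalised intensities on a linear scale, with the 75th percentile of each array at 1500, and a level of 1 probe is never set against that of another probe. A difference was called in limma where it passed a Benjamini-Hochberg adjusted p of 0.05 over 22264 tested probes and reached 1 on the log2 scale in either direction.

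The 3 P2rx7 probes are shown by their opening 30 bases because they lie in different parts of the gene and were assigned to different RefSeq transcripts. All are on the plus strand of chromosome 5 (mm9). The probe with the highest mean (A_52_P393314, chr5:123134194-123134253) is annotated to 2 RefSeq transcripts and is called the probe of variant 1 below. A_51_P506733 (chr5:123120528-123123413) is called the probe of variant 2, and A_55_P2183010 (chr5:123105174-123105233) that of variant 4. The variant numbers serve as names only and were not checked against the transcripts. The probe of variant 2 spans a splice junction, as its 60 bases cover 2886 bases of the genome. They are printed in lower case, since no base was singled out.
P2rx7, probe of variant 1: ttcacttctctctttaaagggaaccatctt
P2rx7, probe of variant 2: tttcggcactggaggaaaatttgacatcat
P2rx7, probe of variant 4: ggtcaaaaagctccccaatccatgcaacaa

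The probes of the other members were P2rx4 at chr5:123178983-123179042 and chr5:123179545-123179604, downstream of P2rx7 on the same strand, Entpd1 at chr19:40816008-40816067, Nt5e at chr9:88266616-88266675, Ada at chr2:163552581-163552640 on the minus strand, Adora2a at chr10:74797461-74797520 and Adora2b at chr11:62078754-62078813 (mm9). The array annotation does not say whether a probe lies in coding or untranslated sequence. P2rx7 and Nt5e are the members that were called higher in both TFH and Treg cells than in naive T cells, so the 250 bases before a RefSeq start of each are printed. RefSeq lists a second start for P2rx7, whose window held none of the motifs below and is not printed. They are on the plus strand of GRCm38.p6, a different assembly from that of the probes, P2rx7 at chr5:122643677-122643926 and Nt5e at chr9:88327359-88327608. Capitals mark matches to the motifs searched on both strands.
P2rx7, 250 bases before the start: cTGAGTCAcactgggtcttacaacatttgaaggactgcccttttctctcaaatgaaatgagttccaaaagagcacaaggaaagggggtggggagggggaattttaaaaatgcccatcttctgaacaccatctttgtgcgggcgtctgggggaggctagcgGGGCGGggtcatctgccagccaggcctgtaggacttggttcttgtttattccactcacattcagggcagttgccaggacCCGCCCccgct
Nt5e, 250 bases before the start: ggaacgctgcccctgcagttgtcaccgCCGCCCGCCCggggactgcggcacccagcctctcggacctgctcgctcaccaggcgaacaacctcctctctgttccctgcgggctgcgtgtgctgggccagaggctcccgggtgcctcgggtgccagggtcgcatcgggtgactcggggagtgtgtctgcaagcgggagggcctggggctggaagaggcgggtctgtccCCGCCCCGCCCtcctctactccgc

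The search covered 6 motifs: TGANTCA (AP-1), CAGCTG (an E-box), ACGTG (the core of the hypoxia response element), TGACGTCA (the cAMP response element), TGTTTAC (forkhead) and GGGCGG (SP1). Of these, ACGTG lies in part within TGACGTCA. The printed P2rx7 window held TGANTCA, which is in 6.7% of the 32851 RefSeq windows of this length, and 2 matches to GGGCGG. The Nt5e window held 4 matches to GGGCGG and none to the other motifs, and GGGCGG is in 32.7% of all windows. The printed windows of these 2 genes shared GGGCGG of the 6 motifs, which the window of the second P2rx7 start lacked. Of the 7 members, 6 had a window in the table, and Adora2a did not.

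Between 43.0% and 58.0% of probes were above background per array, and the lowest intensity of such a probe lay between 20 and 144, so lower levels are not resolved. The labels were checked against their defining genes. Cd3e and Cd4 were high in all arrays, Foxp3 lay between 13409 and 35129 in Treg and TFR arrays and at most at 192 in the others, and Cxcr5 was between 86197 and 169614 in TFH arrays against 803 to 1557 in naive arrays. In TFR arrays Cxcr5 was at 12125 to 15655 in pLN and at 88179 and 72183 in PP, and in Treg arrays at 3071 to 4260 in pLN and at 15156 and 9071 in PP. TFR cells thus exceeded Treg cells within each tissue without overlap, while pLN TFR and PP Treg arrays overlapped. Of the other Treg markers, Lrrc32 was at 8579 to 25207 in Treg and TFR arrays and at most at 155 in the others. Ikzf2 did not separate TFH arrays (5878 to 8544) from Treg arrays (5202 to 9724). Ctla4 did not do so in pLN (6589 to 13787 against 7352 to 13800). Il2ra was at 1191 and 3268 in PP TFR arrays against 13579 and 17257 in PP Treg arrays. The 4 PP arrays of replicate 1, which shared 1 slide (slide 4), stood apart. Their intensity summed over 12 B cell markers was 24070 to 168300 against 4760 to 22000 on the other 16 arrays, and that over 7 epithelial markers 13810 to 38960 against 251.3 to 1612. The called PP differences of the members are therefore also given without slide 4. This leaves 1 array per PP group, which is then assumed to vary like the pLN groups that supply the spread. Whether these other transcripts take part in a member's level was not tested.

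limma's F test over the 12 groups called 17.3% of tested probes. It called P2rx7 on all 3 probes (adjusted p 2.58e-05 to 0.000841), Nt5e (3.5e-05), Entpd1 (6.23e-05), Adora2a (0.00208) and Adora2b (0.00365), and neither P2rx4 (0.0287) nor Ada (0.245). The plot of member levels shows the 7 members by array.

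**Figure D1:**
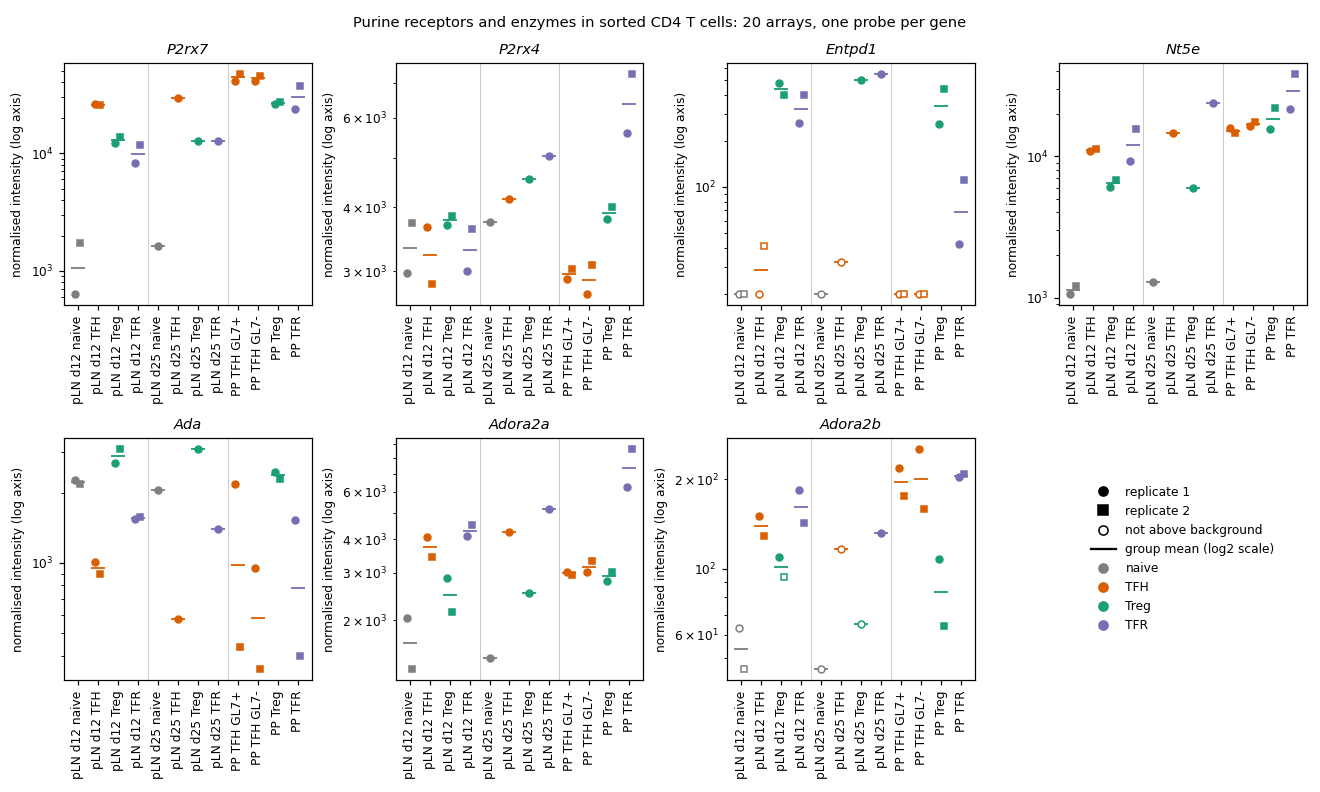
Normalised intensity (log axis, a separate range for each gene) of the 7 members on each of 20 arrays in 12 groups, with open points for arrays not above background and lines for group means on the log2 scale. P2rx7 and Nt5e were lowest in naive T cells, Entpd1 was above background only in Treg and TFR arrays, and the 2 PP slides disagree for Ada in TFH and TFR cells.

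P2rx7 was low in naive T cells and high in every other group. On the probe of variant 1, the pLN d12 naive arrays were at 641 and 1724, TFH arrays at 26051 and 25644, Treg arrays at 12101 and 13691, and TFR arrays at 8277 and 11747. On d25, naive was again lowest at 1639 and TFH highest at 29267, with Treg at 12611 and TFR at 12787. In PP the GL7+ TFH arrays reached 41251 and 46863, GL7- TFH arrays 41107 and 44918, Treg arrays 26238 and 26967, and TFR arrays 23776 and 37371. No naive array overlapped any array of another group. Of the 11 pairs of groups that were neighbours in the order of levels, only pLN d12 TFH over pLN d12 Treg and pLN d12 TFR over d25 naive had 95% intervals of the log2 difference that left out 0.

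In pLN d12, P2rx7 was 24.6-fold higher in TFH than in naive T cells (log2 fold change 4.62, SE 0.39, adjusted p 2.8e-05 by limma) and 12.2-fold higher in Treg than in naive T cells (3.61, SE 0.39, adjusted p 0.000489). The 2 naive arrays differed by 2.69-fold, and the TFH difference was 5.35 on slide 1 and 3.89 on slide 2. The probe of variant 4 gave 4.34 and 3.20 for the 2 comparisons. On the probe of variant 2, all naive arrays were below background, and the levels were at least 16.8-fold higher in TFH and at least 12.4-fold higher in Treg cells. All 3 probes called both differences. The call for Treg cells on the probe of variant 1 was lost when only Treg and naive arrays entered the fit (adjusted p 0.208), a fit in which no probe at all was called.

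The step to the follicular cell differed between helper and regulatory lineages for P2rx7. The change from naive to TFH cells was 4.62, and that from Treg to TFR cells was -0.38 (SE 0.39, adjusted p 0.672). The difference between the 2 steps was itself called, at -5.0 (SE 0.55, adjusted p 0.00144) on the probe of variant 1 and at -4.60 on that of variant 4. The probe of variant 2 called it as well, but its naive arrays were not above background, so no size is given. This test called 2.18% of all probes, and of the 7 members it called P2rx7 and Nt5e. The P2rx7 call held on the other probes and under all alternatives, where adjusted p reached at most 0.0488. Since naive T cells are the starting point of 1 step and Treg cells that of the other, the difference contains the gap between these 2 cell types.

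TFR cells of pLN d12 lay below TFH cells on all 3 P2rx7 probes without overlap. The log2 difference was -1.39 (SE 0.39, adjusted p 0.074) on the probe of variant 1, which missed the threshold, -1.40 (adjusted p 0.149) on that of variant 4, and -1.28 (SE 0.33, adjusted p 0.0491) on that of variant 2, which was called. With slide as a fixed block, the probe of variant 1 was called as well (adjusted p 0.0144), as it was with RNA input as a covariate (0.0163). On d25, TFR was again below TFH on all 3 probes, at 12787 against 29267, 458 against 1134 and 1573 against 4780. In PP, the difference of TFR from GL7+ TFH was -0.56 (95% interval -1.43 to 0.31), and the test of a tissue difference in TFR minus TFH gave 0.83 (SE 0.55, adjusted p 1).

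P2rx7 was higher in PP than in pLN d12 TFR cells by 1.60 (SE 0.39, adjusted p 0.021), with no overlap between 8277 and 11747 in pLN and 23776 and 37371 in PP. The probe of variant 2 gave 1.34 (adjusted p 0.0206), but that of variant 4 gave 0.43 (SE 0.48, adjusted p 0.625) with TFR arrays at 1863 and 2105 in pLN and 1785 and 3978 in PP. The difference on the probe of variant 1 was 1.92 without slide 4 (adjusted p 0.101). The call was also lost without pLN d12 TFR replicate 1 (1.34, adjusted p 0.142), pLN d12 TFR replicate 2 (1.85, 0.0511) or PP TFR replicate 2 (1.27, 0.125), and with slide as a random block (0.0899). For Treg and TFH cells the tissue differences were 1.05 (adjusted p 0.238) and 0.77 (0.326), and neither was called.

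**Figure D2:**
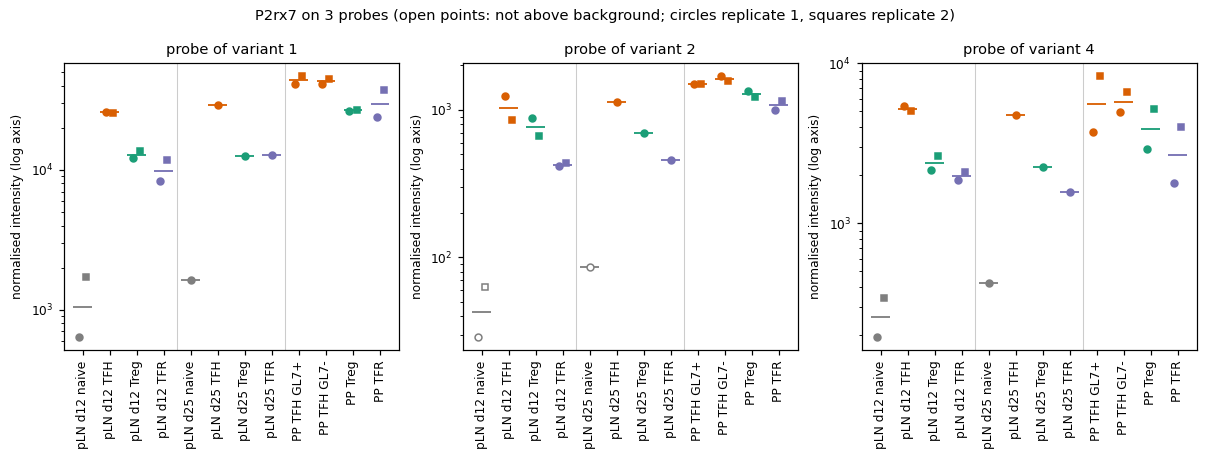
Normalised intensity (log axis) of P2rx7 on its 3 probes in 12 groups, a point per array and lines for group means on the log2 scale. Naive arrays are lowest on all 3, and pLN TFR lies below pLN TFH on each, while the gap between PP and pLN TFR cells is small on the probe of variant 4.

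P2rx4, a second ATP-gated channel encoded next to P2rx7, was called, on its probe with the highest mean, in TFR against TFH cells of PP, where it was higher in TFR cells. In pLN d12 its arrays ranged from 2825 in a TFH array to 3854 in a Treg array, and all 4 comparisons there had log2 differences between -0.19 and 0.18. On d25 the arrays were at 3749 in naive, 4162 in TFH, 4554 in Treg and 5048 in TFR cells. PP TFR arrays were at 5595 and 7301, above the 3798 and 4011 of PP Treg cells and the 2897 and 3024 of GL7+ TFH cells, with no overlap. The difference of PP TFR from TFH cells was called (1.11, SE 0.20, adjusted p 0.0116). That from Treg cells passed the adjusted p at 0.71 (SE 0.20, adjusted p 0.0454) but not the fold, and that from pLN d12 TFR cells likewise (0.95, SE 0.20, adjusted p 0.0107), which without slide 4 was 1.14 and called (adjusted p 0.0472). PP TFR and d25 pLN TFR cells were neighbours in the order of levels and differed by 0.34 (95% interval -0.21 to 0.89).

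The P2rx4 call between PP TFR and TFH cells was lost without slide 4 (1.27, adjusted p 0.148), without GL7+ TFH replicate 1 (1.08, 0.087) or replicate 2 (1.14, 0.0772), and without PP TFR replicate 2 (0.92, 0.104). The difference kept its direction on both slides, 0.95 on slide 4 and 1.27 on slide 5. The second P2rx4 probe was above background only on the PP Treg arrays (101 and 55) and the PP TFR arrays (51 and 52), and gave -0.53 between PP TFR and Treg cells, the opposite sign. It was called higher in PP than in pLN d12 TFR cells (adjusted p 0.0291), where the pLN arrays were not above background.

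Entpd1, which starts the breakdown of ATP, was above background only in Treg and TFR arrays. pLN d12 Treg arrays were at 473 and 400 and TFR arrays at 262 and 398, while the naive arrays were at the floor of 20 and the TFH arrays at 20 and 41, all not above background. On d25 the Treg and TFR arrays were at 500 and 544. In PP, Treg arrays were at 257 and 436, TFR arrays at 42 and 110, and all 4 TFH arrays at the floor. The 10 arrays above background were thus the 10 arrays of Treg and TFR cells, and PP TFR arrays were the lowest of these.

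In pLN d12, Entpd1 was at least 7.07-fold higher in Treg than in naive T cells (adjusted p 0.00038 by limma) and at least 8.78-fold higher in TFR than in TFH cells (adjusted p 0.00143). In PP, it was at least 11.6-fold higher in Treg than in GL7+ TFH cells (adjusted p 0.000263), a call that held without slide 4 (log2 difference -4.45, adjusted p 0.0124). These calls held under the alternatives, except that the pLN calls were lost when only the compared arrays entered the fit (adjusted p 0.075 and 0.115). PP TFR cells were at least 2.35-fold above GL7+ TFH cells, a difference that was not called (adjusted p 0.0736) but was with slide as a fixed block (0.0199).

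TFR cells of PP had less Entpd1 transcript than PP Treg and pLN TFR cells. The log2 difference of PP TFR from PP Treg cells was -2.30 (SE 0.46, adjusted p 0.00895), -2.62 on slide 4 and -1.99 on slide 5, whereas in pLN d12 TFR cells differed from Treg cells by -0.43 (SE 0.46, adjusted p 0.692). The tissue difference between these steps was -1.87 (SE 0.65) and did not pass the correction (adjusted p 0.377). The log2 difference of PP from pLN d12 TFR cells was -2.25 (SE 0.46, adjusted p 0.00949). Without slide 4 the 2 differences were -1.99 (adjusted p 0.122) and -1.55 (0.102), and without PP TFR replicate 1 they were -1.60 (0.0619) and -1.55 (0.0605), so neither was then called. The call against PP Treg cells was also lost without PP Treg replicate 2 (-1.92, 0.0827), and that against pLN without pLN d12 TFR replicate 2 (-1.94, 0.0731) and with slide as a random block (0.062).

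Nt5e, which makes adenosine from AMP, was lowest in naive T cells and was not limited to regulatory cells. pLN d12 naive arrays were at 1064 and 1202, TFH arrays at 10973 and 11193, Treg arrays at 6061 and 6811, and TFR arrays at 9326 and 15641. On d25 the values were 1288 in naive, 14539 in TFH, 5918 in Treg and 23988 in TFR cells. In PP, GL7+ TFH arrays were at 15766 and 14614, GL7- TFH arrays at 16257 and 17490, Treg arrays at 15507 and 22019, and TFR arrays at 21707 and 38167. As for P2rx7, no naive array overlapped another group.

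Nt5e was 9.80-fold higher in TFH than in naive T cells (log2 fold change 3.29, SE 0.30, adjusted p 4.5e-05) and 5.68-fold higher in Treg than in naive T cells (2.51, SE 0.30, adjusted p 0.000989). The TFH call held under all 11 alternatives, and the Treg call under 10 of 11, without the fit of the compared arrays alone (0.0824). For Nt5e, the Treg to TFR step differed from the naive to TFH step by -2.38 (SE 0.43, adjusted p 0.0187). In this test 1 left-out array was enough to lose the call, with adjusted p of 0.0529 to 0.0803 for TFH replicates 1 and 2, TFR replicate 1, Treg replicates 1 and 2 and naive replicate 1, at values of -2.47 to -2.01. Between the follicular populations, TFR against TFH, Nt5e differed by 0.12 (95% interval -0.55 to 0.80) in pLN d12. In PP that difference was 0.92 (SE 0.30, adjusted p 0.182).

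Both regulatory populations had more Nt5e transcript in PP than in pLN d12. The log2 difference was 1.52 (SE 0.30, adjusted p 0.0279) in Treg and 1.25 (SE 0.30, adjusted p 0.0197) in TFR cells, against 0.45 (adjusted p 0.482) in TFH cells. Without slide 4, the TFR difference was 1.66 and still called (adjusted p 0.0355), while the Treg difference was 1.78 and was not (0.0784). With slide as a random block neither was called (0.141 and 0.0824). Against pLN d25 the TFR difference was small, with PP TFR above d25 TFR cells by 0.26 (95% interval -0.56 to 1.09). The d25 TFR array, at 23988, lay between the PP TFR arrays at 21707 and 38167. The d25 Treg array, at 5918, lay below both PP Treg arrays, at 15507 and 22019. The Treg call was lost without any single 1 of its 4 arrays (1.27 to 1.78, adjusted p 0.0625 to 0.194), and the TFR call without pLN d12 TFR replicate 1 (0.88, 0.155) or PP TFR replicate 2 (0.85, 0.125).

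Within pLN, Ada, which removes adenosine, was lowest in TFH cells, and no Ada difference was called in the fit of all arrays without a block. Naive arrays were at 2267 and 2188, Treg arrays at 2679 and 3076, TFR arrays at 1539 and 1577, and TFH arrays at 1011 and 893, without overlap between these groups. On d25, the order was the same, with Treg at 3067, naive at 2059, TFR at 1394 and TFH at 575. The log2 difference of TFH from naive T cells was -1.23, -1.16 on slide 1 and -1.29 on slide 2, but its SE over all arrays was 0.76 and it was not called (adjusted p 0.335). It was called with slide as a fixed block (adjusted p 0.0419) and when only these arrays entered the fit (0.0495).

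The Ada arrays of PP differed widely within groups. GL7+ TFH arrays were at 2190 on slide 4 and 434 on slide 5, GL7- TFH arrays at 954 and 351, and TFR arrays at 1527 and 399, gaps of 5.06-fold, 2.71-fold and 3.84-fold between arrays of a group. The Treg arrays were at 2454 and 2298. The log2 difference of TFR from Treg cells was -2.52 on slide 5 and -0.68 on slide 4. Without slide 4 Ada was called lower in PP TFR than in Treg cells (-2.52, adjusted p 0.00676), in PP TFH than in Treg cells (-2.40, 0.00506) and in PP than in pLN d12 TFR cells (-1.96, 0.00655), where none of these was called on all arrays without a block (adjusted p 0.246, 0.372 and 0.442). The spread in these tests comes from the pLN groups, whose Ada arrays differed by 1.02-fold to 1.15-fold, so they carry none of the spread seen between the PP slides. With slide as a fixed block on all arrays, the difference from Treg cells was called for PP TFR (-1.60, adjusted p 0.0193) and for PP TFH cells (-1.28, 0.0434). The slide with the higher Ada levels is the slide with the B cell and epithelial markers, and their part in the Ada level was not tested.

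Adora2a was lowest in naive T cells and highest in TFR cells of PP. pLN d12 naive arrays were at 2043 and 1317, Treg arrays at 2864 and 2139, TFH arrays at 4075 and 3427 and TFR arrays at 4111 and 4499. On d25 the values were 1439 in naive, 2517 in Treg, 4233 in TFH and 5188 in TFR cells. In PP, the TFR arrays were at 6231 and 8634, above all other arrays of the series, and the TFH and Treg arrays between 2791 and 3302.

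Adora2a was called higher in TFH than in naive T cells of pLN d12 (1.19, SE 0.24, adjusted p 0.00619), a call lost without TFH replicate 1 (1.06, 0.052) or naive replicate 2 (0.87, 0.0504). In PP it was called higher in TFR cells than in Treg cells (1.34, SE 0.24, adjusted p 0.00549) and than in GL7+ TFH cells (1.30, SE 0.24, adjusted p 0.0144). In pLN d12 TFR exceeded Treg cells by 0.80 (SE 0.24, adjusted p 0.0651) and TFH cells by 0.20 (95% interval -0.34 to 0.75), and neither was called. The tissue difference in TFR minus TFH was 1.10 (SE 0.35) and did not pass the correction (adjusted p 0.367). Without slide 4 the PP differences were 1.51 (adjusted p 0.0998) and 1.55 (0.181), not called, and the call against TFH cells was also lost without GL7+ TFH replicate 1 (1.32, 0.087) or replicate 2 (1.28, 0.105) or PP TFR replicate 2 (1.06, 0.126).

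Adora2b was near the lower end of detection, with 14 of 20 arrays above background. The pLN d12 naive arrays, at 63 and 46, and the d25 naive array, at 46, were not above background. In pLN d12, TFH arrays were at 150 and 129, TFR arrays at 183 and 142, and Treg arrays at 109 and 94, the last not above background. In PP, GL7+ TFH arrays were at 218 and 176, GL7- TFH arrays at 252 and 158, TFR arrays at 203 and 208, and Treg arrays at 108 and 64. In both tissues the follicular cells lay above the Treg cells without overlap.

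Adora2b was at least 1.82-fold higher in TFH than in naive T cells of pLN d12 (adjusted p 0.00928). In PP it was called higher than in Treg cells both in TFR (1.30, SE 0.30, adjusted p 0.0197) and in GL7+ TFH cells (1.23, SE 0.30, adjusted p 0.0231). All 3 calls were lost under normexp background correction, which brought the differences to 0.67, 0.78 and 0.73. The PP calls were also lost without slide 4 (1.70 and 1.46, adjusted p 0.0524 and 0.0698), without PP Treg replicate 2 (0.92 and 0.85, adjusted p 0.161 and 0.185) and without either array of the follicular group (1.08 to 1.39, adjusted p 0.0634 to 0.154). The pLN call was lost without TFH replicate 1 (1.26, 0.0651) or naive replicate 2 (1.14, 0.0697).

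By comparison, the members were called as follows. They were chosen with earlier results of these data known, so an excess over all probes could be built in. The counts, shares and medians are therefore a description and not a test of the list. Against naive T cells of pLN d12, TFH cells had 4 of the 7 members called, all higher (P2rx7, Nt5e, Adora2a and Adora2b), where 9.27% of tested probes were called higher and 5.48% lower. Their median log2 fold change was 1.19 against -0.09 over all tested probes. Between Treg and naive T cells, 3 were called, all higher (P2rx7, Nt5e and Entpd1), against 2.86% higher and 0.898% lower. Both comparisons share the naive arrays.

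The step from Treg to TFR cells called none of the 7 in pLN d12 by limma, where Nt5e and Adora2a had an unadjusted p under 0.05 and 5.79% of probes were called higher and 2.56% lower. In PP it called Adora2a and Adora2b higher and Entpd1 lower, against 6.23% and 3.02%. The median of the members was -0.19 in pLN and 0.64 in PP, against -0.08 and -0.05 over all probes. The test of the tissue difference in this step called no member (0.548% of probes). In that test 2 members, P2rx4 and Entpd1, had an unadjusted p under 0.05, as did 1818 of the 22264 tested probes.

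On the probe with the highest mean of each gene, TFR differed from TFH cells in Entpd1 in pLN d12 (2.81% of probes higher, 2.2% lower), where P2rx7 was called on its probe of variant 2, and in P2rx4 and Adora2a, both higher, in PP (2.34% and 1.09%). PP TFH and Treg cells differed in Entpd1, lower, and Adora2b, higher in TFH (5.26% of probes higher, 4.62% lower). The tissue difference of TFR minus TFH called no member (0.611% of probes). In that test 3 members had an unadjusted p under 0.05, as did 1444 of the 22264 tested probes. With slide as a fixed block, P2rx4 was called in this tissue difference (1.07, adjusted p 0.0472). When GL7+ was compared with GL7- among PP TFH cells, limma called no member and 0.00898% of probes. No member had an unadjusted p under 0.05, against 254 of the 22264 tested probes. The methods' t-test called 556 probes unadjusted and 1 (Galnt3) after Benjamini-Hochberg adjustment, none of them a member probe. The 95% interval of the GL7+ to GL7- difference in the limma fit was -0.84 to 0.91 for P2rx7 and -0.83 to 0.52 for Nt5e.

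Between tissues, TFR cells of PP had more P2rx7 and Nt5e and less Entpd1 than those of pLN d12 (5.74% of probes higher, 5.39% lower). Treg cells differed in Nt5e alone (1.82% higher, 0.422% lower). TFH cells differed in no member by limma (2.36% higher, 2.18% lower). No member had an unadjusted p under 0.05 in TFH cells, against 4365 of the 22264 tested probes. Tissue cannot be told apart from slide here, since each slide held cells of 1 tissue. Between d25 and d12 in pLN, averaged over the 4 cell types, no member was called (0.0404% of probes). Of the members, only P2rx4 had an unadjusted p under 0.05 (0.36, SE 0.12, adjusted p 0.388), against 2098 of the 22264 tested probes.

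**Figure D3:**
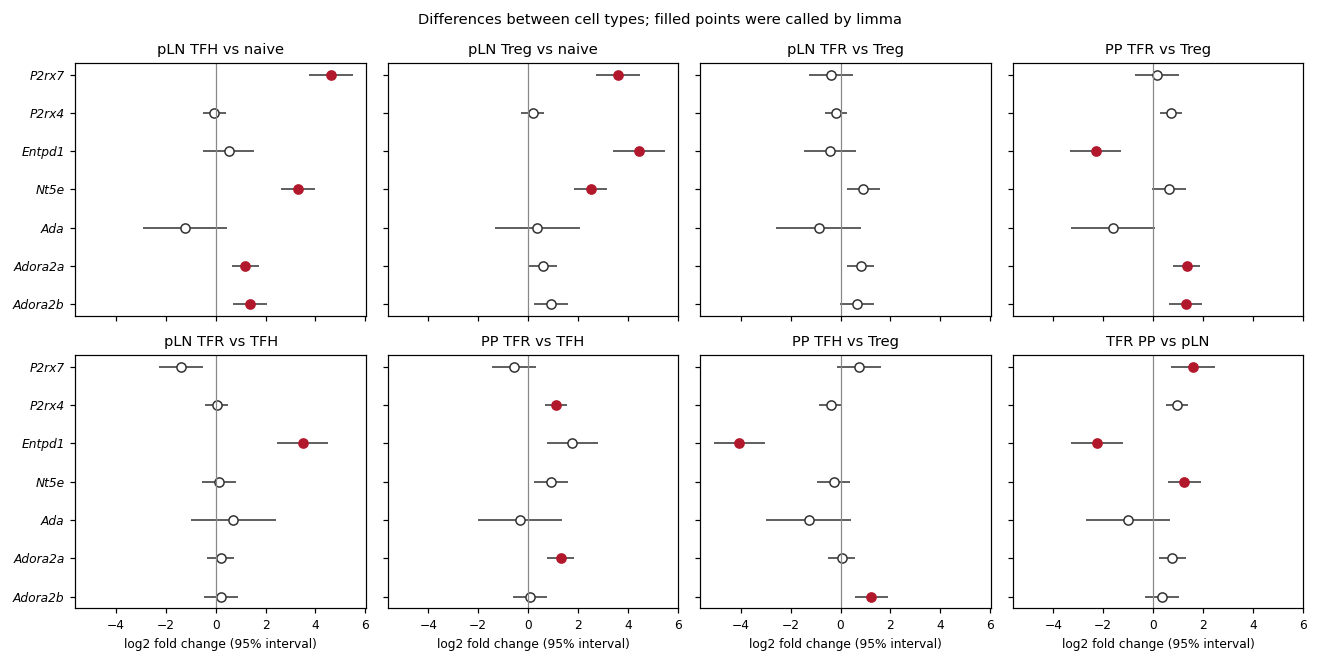
Log2 fold change with its 95% interval for the 7 members in 8 comparisons, filled where limma called it. The intervals of Ada are the widest, and Entpd1 lies on opposite sides of 0 in TFR against TFH cells and in PP against pLN TFR cells.

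Further genes of the purine pathway were followed on 4 lists with 41 genes, of which 40 had a probe and 28 a tested probe. They were other P2X, P2Y and adenosine receptors (6 of 15 tested), other ectoenzymes of nucleotides and NAD (7 of 11), nucleotide release and nucleoside transport (5 of 5) and enzymes of adenosine, AMP and purine salvage inside the cell (10 of 10). A gene enters the test only where it is above background in some group, so the counts say nothing of the untested receptors. A gene that entered only through the groups where it was high was selected in part by the difference then tested. This holds for P2ry1, P2rx5 and Entpd2, and for Entpd1 among the members. Between TFH and naive T cells, 4 of the 28 were called higher (P2ry1, Entpd2, Slc29a1 and Pnp2) and 2 lower (P2ry14 and Slc29a2), against 9.27% and 5.48% of all tested probes. Between Treg and naive T cells, none was called, against 2.86% of all tested probes higher and 0.898% lower.

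P2ry1, a receptor for ADP, was above background only in TFH arrays. The pLN d12 TFH arrays were at 113 and 203, the d25 TFH array at 289, the GL7+ PP arrays at 226 and 197 and the GL7- PP arrays at 372 and 314, while all naive, Treg and TFR arrays lay between 20 and 53. By limma it was at least 2.47-fold higher in TFH than in naive T cells of pLN d12 (adjusted p 5.95e-05). In the same nodes it was at least 2.77-fold lower in TFR than in TFH cells (0.000234). P2ry1 was also called lower in TFR than in GL7+ TFH cells of PP (fitted log2 difference -2.88, adjusted p 0.000231). No bound is given for that difference. The PP TFR arrays, at 33 and 25, were not above background but exceeded the lowest intensities detected on them (29 and 20). In PP, TFH exceeded Treg cells at least 6.23-fold (adjusted p 2.64e-05). The 7 arrays with P2ry1 above background were thus the 7 TFH arrays of both tissues, on which Entpd1 was not above background.

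P2ry14, a receptor for UDP-glucose, went the other way. It was at 415 and 309 in naive, 376 and 346 in Treg, 248 and 284 in TFR and 147 and 129 in TFH arrays of pLN d12. It was not above background on the d25 TFH array and the 4 PP TFH arrays. PP Treg arrays were at 139 and 187 and PP TFR arrays at 66 and 115. Between tissues it was called lower in PP than in pLN d12 TFR cells (-1.60, adjusted p 0.00744 by limma). That call was lost without PP TFR replicate 1 (-1.20). The TFH difference between tissues was called as well (adjusted p 0.0018). It was lower in TFH than in naive T cells of pLN d12 (-1.38, SE 0.31, adjusted p 0.0104) and at least 5.58-fold lower in GL7+ TFH than in Treg cells of PP (0.000185). Under normexp background correction, TFH differed from naive T cells by -0.99, short of the fold. The pLN call was lost without TFH replicate 2 (-1.28, 0.0622) or naive replicate 1 (-1.16, 0.0914). P2rx5, another ATP-gated channel, was above background only in TFR arrays, at 61 in 1 of 2 pLN d12 arrays and at 60 and 121 in PP. The d25 TFR array was at 92 but not above background. In PP TFR cells, P2rx5 was at least 2.52-fold above Treg cells (adjusted p 0.00474), a difference of 0.72 under normexp background correction. P2rx5 entered the test through the PP TFR arrays alone, so this call follows in part from the filter. It was also called higher in TFR than in Treg cells of pLN d12 (adjusted p 0.0435), a call lost without any single 1 of the 4 arrays. Without the filter on dim probes, that call (0.0908 by limma) and the one in PP TFR against TFH cells (0.113) were lost.

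Art2b, the ADP-ribosyltransferase that can open the P2rx7 channel, fell in TFR cells of pLN. Its pLN d12 arrays were at 1010 and 1731 in naive, 2390 and 3144 in TFH, 1532 and 2723 in Treg and 261 and 638 in TFR cells, and on d25 TFR was again lowest at 842. In PP all arrays lay between 6501 and 11203. The pLN d12 log2 difference of TFR was -2.32 from Treg cells (SE 0.45, adjusted p 0.00791) and -2.75 from TFH cells (SE 0.45, adjusted p 0.00492). TFR cells of PP exceeded those of pLN by 4.24 (SE 0.45, adjusted p 0.000434). The call against Treg cells was lost without TFR replicate 1 (-1.68, 0.0663) or Treg replicate 2 (-1.91, 0.0827). Art2b has a close copy, Art2a, without a probe of that name on the array, and the probe was not shown to tell the copies apart.

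Among ectoenzymes, Cd38, which uses NAD, was higher in PP than in pLN d12 TFR cells (2.28, SE 0.56, adjusted p 0.021), at 18536 on slide 4 and 9687 on slide 5 against 2336 and 3245. Enpp1, which splits ATP to AMP, differed by 4.31 in the same comparison (SE 1.23, adjusted p 0.0389), with arrays of 1 group apart by many-fold, as in pLN d12 TFH cells at 272 and 4810. The Cd38 call was lost without PP TFR replicate 1 (1.81, 0.131) or either pLN array (2.05 and 2.52, 0.129 and 0.0643), and the Enpp1 call without any single 1 of the 4 arrays (4.01 to 4.62, 0.115 to 0.176). Entpd2, a relative of Entpd1, stayed at 115 or below on all arrays, and its 2 calls were lost under normexp background correction (0.71 and 0.66). Both were also lost in limma without the filter on dim probes (adjusted p 0.0546 and 0.101).

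Slc29a1, the equilibrative nucleoside transporter that carries adenosine across the membrane, was higher in TFH than in naive T cells (1.47, SE 0.19, adjusted p 0.000394), with arrays at 10619 and 12736 against 4268 and 4123. In PP it was higher in GL7+ TFH than in Treg cells (1.07, SE 0.19, adjusted p 0.00424), at 16421 and 19767 against 8098 and 9090. The PP call was lost without slide 4 (1.12, adjusted p 0.0606), and fell short of the fold without GL7+ TFH replicate 2 (0.94) or PP Treg replicate 1 (0.99). Adk, which turns adenosine back into AMP inside the cell, was lower in TFR cells of PP, at 6122 and 6095, than in PP Treg cells, at 12263 and 12885 (-1.04, SE 0.21, adjusted p 0.0101), a call lost without slide 4 (-1.08, 0.186), PP TFR replicate 1 (-1.04, 0.0513) or replicate 2 (-1.04, 0.0531), or PP Treg replicate 2 (-1.01, 0.0676). Pnp2, a nucleoside phosphorylase with a close copy, Pnp, was not above background in naive and Treg arrays of pLN and lay at 197 to 368 in TFH and TFR arrays of pLN d12. Its calls there (at least 3.32-fold for TFH over naive, at least 7.01-fold for TFR over Treg) were lost without any single 1 of the 4 arrays compared (adjusted p 0.0538 to 0.0952).

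Over the comparisons between cell types, the 28 tested genes of the 4 lists gave 2 higher and 1 lower from Treg to TFR cells in each tissue, 1 higher and 2 lower in pLN and 2 higher and 1 lower in PP between TFR and TFH cells, and 2 in each direction between PP TFH and Treg cells. Between tissues they gave 3 higher and 2 lower in TFR, 2 higher and 1 lower in TFH and 1 higher in Treg cells. The 2 tests of a tissue difference, the GL7 comparison and d25 against d12 called none of the 28. For Treg to TFR, 5.79% of all tested probes were called higher and 2.56% lower in pLN. In PP the shares were 6.23% and 3.02%, so 2 and 1 of 28 lay near the background. For TFR against TFH cells the shares were 2.81% and 2.2% in pLN and 2.34% and 1.09% in PP. They were 5.26% and 4.62% for PP TFH against Treg cells. Between tissues they were 5.74% and 5.39% in TFR, 2.36% and 2.18% in TFH and 1.82% and 0.422% in Treg cells. None of these counts is read as a result about the lists. Without slide 4, which leaves 1 array per PP group, calls were kept for P2ry1 in PP TFR against TFH (-2.98) and TFH against Treg (3.30). P2ry14 kept those in PP TFH against Treg (-3.06), PP TFR against TFH (2.36) and PP against pLN TFH (-2.61) and TFR cells (-1.20). Calls were also kept for P2rx5 in PP TFR against Treg (2.60), and Art2b (4.49) and Cd38 (1.81) in PP against pLN TFR cells. Between tissues, calls were lost for Enpp1 (4.28) and Adk (-1.13) in TFR cells. They were also lost for Cd38 (1.60) and Ampd3 (1.78) in TFH and Art2b (2.46) in Treg cells. Within PP, Entpd2 (2.40) and Adk (-1.08) lost the call in TFR against Treg cells, and P2rx5 (1.70) in TFR against TFH. P2ry10 (-2.23) and Slc29a1 (1.12) lost it in TFH against Treg cells.

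**Figure D4:**
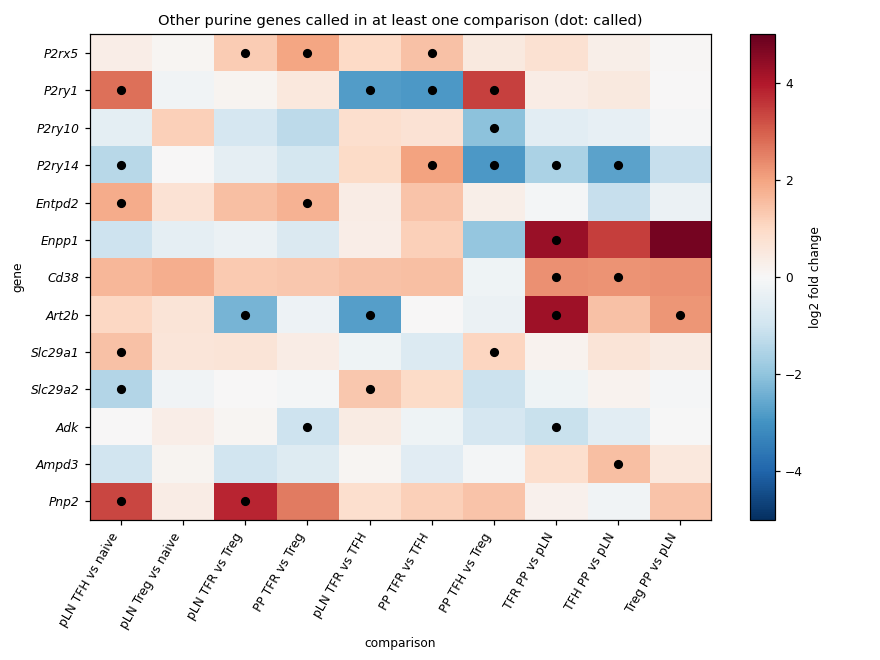
Log2 fold change (colour) of the 13 genes of the 4 further lists that were called in at least 1 of the 10 comparisons plotted, with a dot where limma called it. P2ry1 is called in 4 comparisons that involve TFH cells, and Art2b in 4 that involve TFR or Treg cells.

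The genes most like each member over the 20 arrays were named by Pearson's r of the log2 values, a description over arrays that share slides and groups. For P2rx7 these were Tex33 (0.965), Igf1r (0.953) and Slc43a1 (0.951), and for Nt5e they were Sh3gl3 (0.966), Ptger2 (0.966) and Gm5796 (0.963). Entpd1 was most like Il2ra (0.968), Gsta4 (0.966) and Socs2 (0.966), and Adora2a most like Slc16a3 (0.959), Mapk8ip1 (0.933) and Nfil3 (0.927). For Adora2b they were Gm12070 (0.957), Gapdh (0.954) and Gm6981 (0.954), for Ada Mgst3 (0.904), Nsun5 (0.900) and Las1l (0.898), and for P2rx4 Mxra8 (0.885), Plekhh1 (0.838) and Tom1l2 (0.823). Among the members themselves, P2rx7 and Nt5e had the highest r (0.90) and Ada and Adora2b the lowest (-0.55).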

How the data were processed

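RNA of sorted CD4 T cells was amplified, labelled and hybridised by the authors to single-colour Agilent arrays (39429 probes, 4 features each) and read with Agilent Feature Extraction 10.7.3.1, per the labels. The deposited scanner files hold intensity per feature. The deposited series matrix holds the authors' intensity per probe, averaged over features, put through quantile normalisation, with a 75th percentile of 1500 and a floor of 20, and served as an alternative. Values were rebuilt from the scanner files by the same steps after leaving out flagged features, and had a median log2 distance from the authors' values of 0.0347 to 0.0362 per array. A probe was above background with at least 3 of 4 features well above it. No probe was saturated. The number of arrays limits the precision, with 8 residual degrees of freedom.

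A mean for each of 12 groups was fitted over 20 arrays with limma 3.58.1 (lmFit and eBayes, R 4.3.3), which assumes that the d25 groups of 1 array vary like the groups of 2, and 15 comparisons and an F test (called at p under 0.001 and adjusted p under 0.005) were made. The test was checked on simulated data. Where both arrays of a group were not above background, the fold is a bound, for which each array of the dim group was set no lower than the lowest intensity detected on it. Per the labels, slides 1 and 4 received 50 ng of RNA per array and the others 40 ng, values used as a covariate although the methods state a lower range. Replicates were numbered by accession order, which pairs no samples.

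The members and lists were chosen with earlier results of these data known. All member probes are given, every called gene of the further lists may be named, largest change first and at most 6 per direction and comparison, and the 3 genes most like each member are named. Positions are those of the array annotation (mm9), and promoter windows are from RefSeq (GRCm38.p6). Alternatives were other normalisations, no filter on dim probes, slide or RNA input in the model, the compared groups alone, and leaving out slide 4 or each replicate. The series describes more pLN experiments than the arrays analysed here.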

Additional observations from a re-analysis of the deposited data

Results flagged for a closer look

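The change from the starting cell to the follicular cell differed between the helper lineage (naive to TFH) and the regulatory lineage (Treg to TFR) of pLN d12 by limma's test of the difference itself for 4 genes. The log2 differences were -5.0 for P2rx7, -2.38 for Nt5e, -2.62 for P2ry1 and -3.38 for Art2b. The naive, Treg and TFR arrays of P2ry1 were all not above background, so its value is a fitted one against unmeasured groups and gives no size. For Art2b and Nt5e, leaving out a single array could end the call, as for Art2b without naive replicate 1 (-2.99, adjusted p 0.0982), and for P2ry1 normexp background correction did so (-0.94, adjusted p 0.178). The naive and Treg cells that start the 2 steps differed themselves for P2rx7 and Nt5e.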

How the results depend on the processing

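No paired analysis was possible by replicate number because the labels carry none, and slide, which holds 1 array of each cell type of its tissue and day, was used as a block instead. Of 21 called member differences, 185 of 259 alternative values kept the call, 74 lost it and none changed direction. Of 30 uncalled differences of at least 0.7, 19 of 409 alternative values were called and 5 changed direction: Ada between GL7+ and GL7- TFH cells (-0.41 to 1.92 over the arrays left out, negative without replicate 1) and in the tissue difference of TFR minus TFH (-2.20 to 0.13, positive without GL7+ TFH replicate 1), Ada in the tissue difference of the Treg to TFR step (-1.69 to 0.24, positive without PP TFR replicate 2), and the second P2rx4 probe in PP TFR against Treg cells (-0.53) and in that tissue difference (-0.21). For the further lists, 261 of 390 values kept the call, an addition made after seeing the data.

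None of the counts in this paragraph is read as a result about the members. The number of members called was 0 with the compared groups alone in Treg against naive, in TFR against TFH and against Treg in PP, in TFR against TFH in pLN, and in PP against pLN for TFR and Treg cells. It was 1 for the lineage difference and PP TFH against Treg. Of all tested probes, these fits called 648 for TFR between tissues, 185 for the lineage difference, 750 for PP TFH against Treg and 0 in the others. Without slide 4 it was 0 for PP TFR against TFH and for Treg between tissues, and 1 for PP TFR against Treg. A fixed block for slide gave 2 for pLN TFR against TFH (1835 probes called) and 1 for the tissue difference of TFR minus TFH (613 probes called), and a random block 0 for TFR and Treg between tissues. RNA input as a covariate gave 2 for pLN TFR against TFH. Scaling without quantile normalisation gave 1 for PP TFH against Treg and 1 for TFR between tissues, normexp 1 for PP TFH against Treg, and no filter 0 for Treg between tissues. Leaving out single arrays gave 2 to 4 for TFH against naive, 1 to 3 for PP TFR against Treg, 0 to 3 for PP TFR against TFH, 1 to 2 for PP TFH against Treg, 1 to 3 for TFR and 0 for Treg between tissues, and 1 to 2 for the lineage difference.

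The number of probes called was lowest with the compared groups alone and highest with slide as a fixed block for TFH against naive (1463 and 4263, 3283 as reported), Treg against naive (0, 1361, 837), pLN TFR against Treg (585, 2712, 1858), pLN TFR against TFH (0, 1835, 1116), PP TFR against Treg (0, 3092, 2059), PP TFR against TFH (0, 1376, 765), PP TFH against Treg (750, 3279, 2198), the lineage difference (185, 1379, 485) and the tissue difference of TFR minus TFH (0, 613, 136). Between tissues, RNA input as a covariate gave the most, 1143 for Treg (499 as reported), 2015 for TFH (1011) and 3533 for TFR (2476), and the compared groups alone the fewest (0, 0 and 648). The tissue difference of the Treg to TFR step ran from 10 without slide 4 to 1019 with the fixed block (122 as reported), GL7+ against GL7- from 0 to 27 (2) and d25 against d12 from 0 to 38 (9).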
